A study of Homo sapiens with 6 samples.

Results

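RAB GTPases are the largest branch of the RAS superfamily and mark the membranes between which vesicles travel. Leaving out RAB25, 58 of 23368 gene symbols in the count table carry a RAB name made of a number and at most 1 letter. These 58 were taken whatever their values, by a rule set with earlier results of these data known. Gene expression was measured by RNA sequencing of total RNA from HCT116, an established human colon cancer line, after an siRNA against ADNP (siADNP, 3 libraries) or a control siRNA (siControl, 3 libraries). ADNP is a zinc finger and homeodomain protein bound to chromatin, and the comparison asks which transcripts differ when it is depleted. Both groups are the same line and tissue of origin; for the siRNA sequences, their dose and the time after transfection, the sources used here give nothing. The replicates are called biological, with no word on separate cultures, so the spread behind each p-value may be partly technical.

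A RAB protein is a switch. In its GTP form it sits on a membrane and binds effectors, which tether, move or fuse vesicles, and in its GDP form it is drawn off the membrane by a GDP dissociation inhibitor. Exchange factors of the DENN, RIN and TRAPP kinds load GTP, TBC-domain proteins speed its hydrolysis, and a prenyl tail added with the help of an escort protein anchors the switch. In epithelial cells such as those of the colon, RABs sort cargo between the early, recycling and late endosomes, the Golgi, and the apical and basolateral surfaces.

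ADNP stood at 46.7, 55.3 and 59.8 CPM (counts scaled to a common number of reads in genes, with TMM factors) in siADNP libraries, against 171, 155 and 167 CPM in siControl libraries, so the target's level matched every label. Reads assigned to genes ranged from 7396771 to 8726017 in siADNP and from 8282290 to 10265175 in siControl libraries. Of 8 epithelial markers 7 were well measured, with summed levels of 3118 to 3342 CPM in siADNP and 3223 to 3289 CPM in siControl libraries, while VIL1 had no read. Among them CLDN4 rose (log2 fold change 0.25, edgeR adjusted p = 0.00691), a call lost in edgeR without siControl replicate 1 (0.0510) and with the GC offset (0.0611). KRT19 fell (-0.15, edgeR adjusted p = 0.0203), a call lost in edgeR with upper-quartile scaling (0.0604) and without siADNP replicate 2 (0.0726), siADNP replicate 3 (0.0859), siControl replicate 2 (0.123) or siControl replicate 3 (0.0656). Fibroblast markers summed to 7.86 to 10.3 CPM in siADNP and 7.48 to 8.44 CPM in siControl libraries, nearly all COL1A1, with DCN, LUM and FAP at 0. Blood markers summed to 9.40 to 10.5 CPM in siADNP and 7.11 to 7.85 CPM in siControl libraries, nearly all CD68, with MS4A1 and HBB at 0. CD68, a lysosomal protein of macrophages that other cells also make, passed narrowly with a log2 fold change of 0.42 (edgeR adjusted p = 0.0366). It did not pass in DESeq2 (0.174), with the GC offset (0.0762), or in edgeR without any 1 library other than siControl replicate 1, with adjusted p of 0.0622 to 0.114. The part of these marker changes in the RAB results was not tested. Endothelial markers summed to 0.813 to 0.906 CPM in siADNP and 0.787 to 1.91 CPM in siControl libraries, with CDH5 at 0.

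Of the 58 RAB genes, 44 had enough reads to test, and 10 of these were higher and 2 lower in siADNP than in siControl at an adjusted p under 0.05 (edgeR's quasi-likelihood test, Benjamini-Hochberg over all 12489 tested genes). The members that rose were RAB26, RAB15, RAB37, RAB3A, RAB20, RAB12, RAB36, RAB27B, RAB3D and RAB3B, and the members that fell were RAB22A and RAB10. Among all tested genes 14.6% were called higher and 13.7% lower, against 22.7% and 4.55% of the tested RAB genes. In either direction 12 members were called, 27.3%, beside a background of 28.3%, so RAB genes were called about as often as any gene. The groups did not overlap in 16 members, 36.4%, against 40.8% of all tested genes, with siADNP above in 11 members, 25%, against 20.1%, and below in 5, 11.4%, against 20.7%. The median log2 fold change was 0.033 over the tested members and -0.0013 over all tested genes. The RAB transcripts together kept their share of the library, at 3182, 3085 and 3177 CPM in siADNP and 3128, 3174 and 3075 CPM in siControl libraries, ranges that overlap. In bulk RNA, a change in the number of cells that hold a transcript and a change per cell cannot be told apart. DESeq2's Wald test called 6 members higher and 1 lower, and 6 were called higher in edgeR without siControl replicate 1 or without siControl replicate 3. Members called lower numbered 1 without siADNP replicate 1 (RAB30, in place of both), siControl replicate 1 or siControl replicate 3 (RAB22A), and 0 without siADNP replicate 3 or siControl replicate 2 (edgeR), where 4 and 2 members were lower at an unadjusted p under 0.05.

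**Figure D1:**
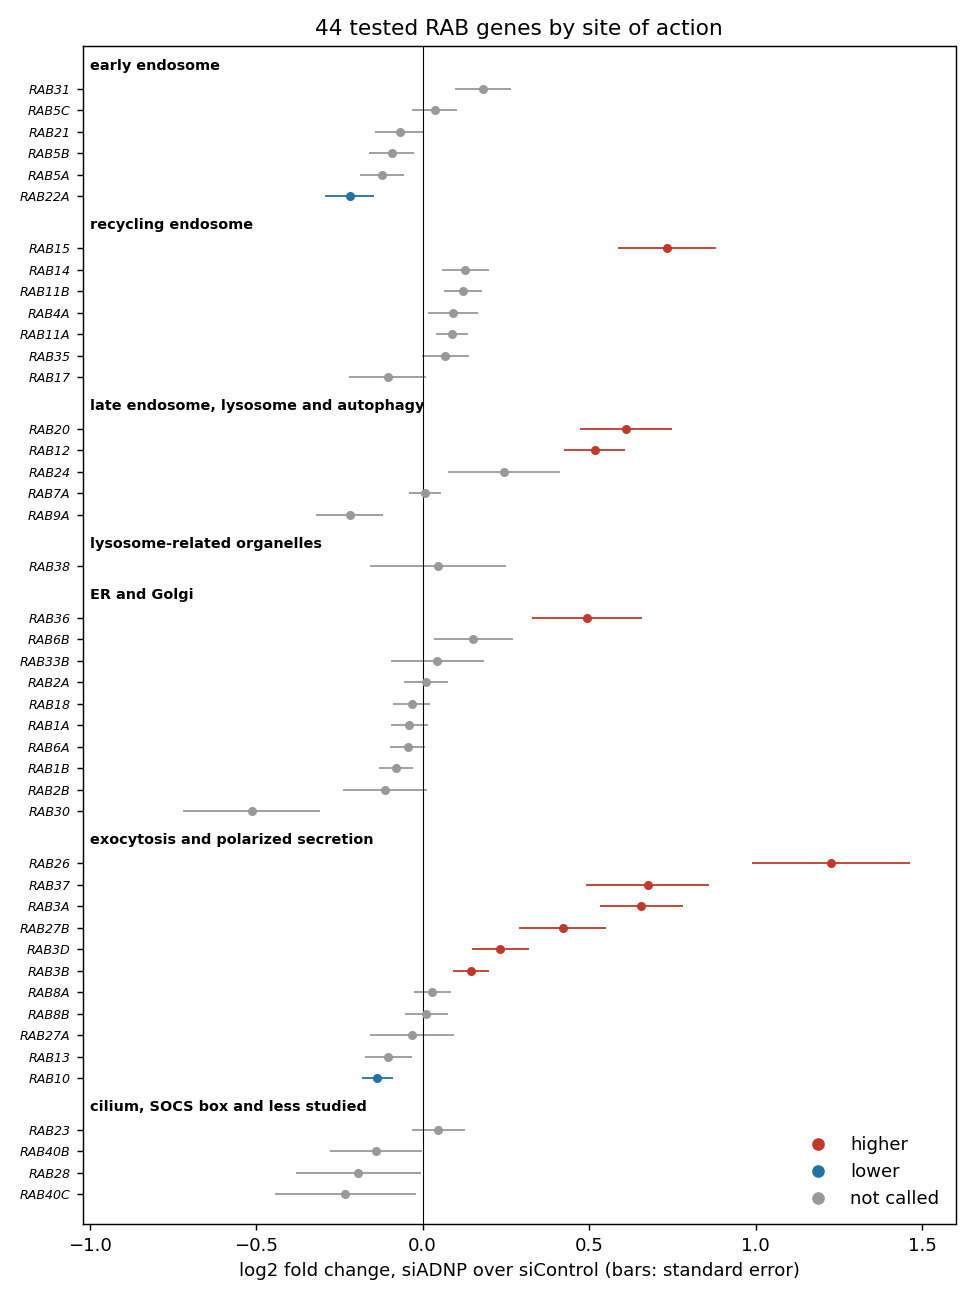
Log2 fold change of siADNP over siControl (x axis) for the 44 tested RAB genes (y axis), grouped by where they act; points are edgeR estimates, bars standard errors, red called higher, blue called lower, grey not called. Of the 10 called higher, 6 belong to exocytosis and polarized secretion, a group drawn up with earlier results known. RAB26 has the highest value, 1.23.

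The RABs of exocytosis and polarized secretion held 6 of the 10 rises, in role groups drawn up with earlier results of these data known. Of 11 tested members of exocytosis and polarized secretion, 6 rose, 1 fell and 4 did not pass, with a median log2 fold change of 0.14, where 14.6% of all tested genes rose. RAB26, which recruits membrane to maturing secretory granules, was at 4.75, 6.12 and 5.56 CPM in siADNP and 2.91, 1.67 and 2.53 CPM in siControl libraries. Every siADNP library lay above every siControl library, and the 2.34-fold rise (log2 fold change 1.23 ± 0.24 (SE), edgeR adjusted p = 0.00013) rested on 132 reads in siADNP and 64 in siControl. RAB37, found on secretory granules, was at 8.86, 6.23 and 8.95 CPM in siADNP and 5.61, 4.82 and 4.46 CPM in siControl libraries. The groups did not overlap, although siADNP replicate 2 stood close to the siControl range, and the log2 fold change was 0.68 ± 0.18 (edgeR adjusted p = 0.00507). RAB27B, which docks granules and multivesicular bodies at the plasma membrane, was at 14.3, 14.3 and 13.3 CPM in siADNP and 9.75, 11.7 and 9.64 CPM in siControl libraries, again without overlap (log2 fold change 0.42 ± 0.13, edgeR adjusted p = 0.0139). Its paralogue RAB27A averaged 13.4 ± 1.29 CPM in siADNP and 13.7 ± 1.03 CPM in siControl libraries (SD, n = 3 each) and did not pass (log2 fold change -0.03 ± 0.13); the difference between the paralogues was not tested. RAB27A shares exon positions with PIGB on the other strand, which fell (-0.41, edgeR adjusted p = 0.00934). The call of RAB27B ended in DESeq2 (adjusted p = 0.0883) and, in edgeR, without siControl replicate 1 (0.0611) or replicate 3 (0.0641). The rises in this group numbered 3 of 6 RAB rises in DESeq2 and without either of those siControl libraries, 4 of 8 with no filter on low counts, 5 of 10 without siControl replicate 2 and 5 of 11 with the GC offset.

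All 3 tested members of the RAB3 subfamily rose. RAB3A, the RAB of synaptic vesicle exocytosis, was at 17.9, 14.8 and 17.5 CPM in siADNP and 10.99, 10.1 and 10.6 CPM in siControl libraries, with no overlap and a 1.58-fold rise (log2 fold change 0.66 ± 0.13, edgeR adjusted p = 0.000117). RAB3D, known from zymogen granules, was at 30.8, 35.0 and 33.2 CPM in siADNP and 27.9, 29.3 and 27.0 CPM in siControl libraries, with no overlap (log2 fold change 0.23 ± 0.09, edgeR adjusted p = 0.0375). RAB3B, also a RAB of regulated exocytosis, was the most abundant of them per transcript length, at 151, 152 and 136 CPM in siADNP and 129, 136 and 131 CPM in siControl libraries. Its groups overlapped at siADNP replicate 3 and siControl replicate 2, and it passed narrowly (log2 fold change 0.14 ± 0.05, edgeR adjusted p = 0.043). RAB3C had no read in any library. In DESeq2 the adjusted p was 0.167 for RAB3D and 0.125 for RAB3B, and neither passed in edgeR with no filter on low counts, without siADNP replicate 2, siControl replicate 1 or siControl replicate 3. RAB3D missed as well without siADNP replicate 3 (0.0707) and with the GC offset (0.0775), and RAB3B without siADNP replicate 1 (0.136) or siControl replicate 2 (0.0517), with a highest adjusted p over all alternatives of 0.167 for RAB3D and 0.162 for RAB3B. RAB3A was called in every one of the 16 alternatives. Exons of RAB3D overlap TMEM205 on the same strand, where no strand setting can separate reads on shared positions. Those of RAB3A overlap MPV17L2 on the other strand. As the strand setting of the counting is not given, reads of RAB3A and MPV17L2 may not be fully separated. MPV17L2 and TMEM205 both had a log2 fold change of 0.03 and were not called. The limit of the unknown strand setting also holds for RAB12, RAB37 and RAB27B. They have an antisense transcript annotated on the other strand, with no value here.

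The sequences upstream of the RAB3 genes and of both genes that fell are shown, the first as a subfamily whose 3 tested members all rose and the second as the only members called lower. They come from the RefSeq promoter table (GRCh38.p14, a newer build than the hg19 of the counts). RAB27B, which rose and has an entry there too, is not shown, and the per-gene values below leave it out. Each is the 250 bases before the annotated start, 5′ to 3′ on the gene's strand. They lie at chr19:18204043-18204292 (minus) for RAB3A, chr19:11339658-11339907 (minus) for RAB3D, chr1:51990701-51990950 (minus) for RAB3B, chr20:58309465-58309714 (plus) for RAB22A and chr2:26033834-26034083 (plus) for RAB10. Capitals mark the GC box GGGCGG on either strand, overlapping matches included.
RAB3A: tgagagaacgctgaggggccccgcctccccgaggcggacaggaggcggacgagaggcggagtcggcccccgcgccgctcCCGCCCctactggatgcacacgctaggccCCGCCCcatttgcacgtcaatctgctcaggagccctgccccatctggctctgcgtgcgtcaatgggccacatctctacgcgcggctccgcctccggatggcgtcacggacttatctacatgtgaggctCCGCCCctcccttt
RAB3D: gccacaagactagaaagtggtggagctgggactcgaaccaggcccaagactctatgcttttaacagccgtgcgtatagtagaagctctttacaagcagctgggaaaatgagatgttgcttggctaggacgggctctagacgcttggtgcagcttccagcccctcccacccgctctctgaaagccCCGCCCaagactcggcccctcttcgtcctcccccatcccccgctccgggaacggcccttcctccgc
RAB3B: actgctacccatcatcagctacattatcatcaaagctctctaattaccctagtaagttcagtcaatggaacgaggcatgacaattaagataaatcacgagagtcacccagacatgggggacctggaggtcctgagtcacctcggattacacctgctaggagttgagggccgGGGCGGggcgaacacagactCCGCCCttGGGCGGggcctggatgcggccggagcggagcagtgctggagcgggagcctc
RAB22A: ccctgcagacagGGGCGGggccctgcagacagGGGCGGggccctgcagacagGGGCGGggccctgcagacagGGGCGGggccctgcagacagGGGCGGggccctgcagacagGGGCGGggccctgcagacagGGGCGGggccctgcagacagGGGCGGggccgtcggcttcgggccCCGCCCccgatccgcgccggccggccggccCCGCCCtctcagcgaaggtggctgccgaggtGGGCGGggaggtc
RAB10: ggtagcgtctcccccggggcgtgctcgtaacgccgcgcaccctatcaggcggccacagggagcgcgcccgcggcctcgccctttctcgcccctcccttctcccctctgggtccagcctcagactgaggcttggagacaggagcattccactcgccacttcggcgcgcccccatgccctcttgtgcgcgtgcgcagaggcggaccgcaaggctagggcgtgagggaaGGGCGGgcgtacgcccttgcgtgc
RAB3A held 3 GC boxes, RAB3D 1 and RAB3B 3, against 11 in RAB22A, most of them in a short unit repeated in tandem, and 1 in RAB10. GC content was 68.4%, 59.6% and 56.8% upstream of RAB3A, RAB3D and RAB3B, and 80.8% and 71.2% upstream of RAB22A and RAB10, with 25, 13 and 12 CpG dinucleotides in the first set and 22 and 28 in the second. For scale, the medians were 65.6% and 23.5 CpG upstream of 28 RAB members not called, and 58% and 11 over all 27305 windows. None of these 5 windows held the letters CCAAT, the letters CACGTG or the letters TATAAA on either strand. Of the 44 tested members 34 matched the promoter table, taking the first listed start of each gene, and 31 of them, 91.2%, held a GC box, against 42.3% of 27305 windows of the same length. The CCAAT box was in 29.4% of the RAB windows and 33.0% of all, CACGTG in 14.7% and 6.49%, and TATAAA in 0 of 34 and 11.1% of all. The 27305 windows are 1 for each symbol of the promoter table, tested here or not, while the RAB windows are of tested genes only. Shares over tested genes were not computed, so these contrasts do not show a trait of RAB genes. All 4 matched members that rose and both that fell held a GC box. RAB26, RAB15, RAB37, RAB20, RAB12 and RAB36, which also rose, have no entry in the promoter table. As 31 of 34 RAB windows held the box, these few windows cannot show whether it separates the directions.

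RAB10 was the member of the secretory group that fell. It carries vesicles to the basolateral surface and, in fat cells, the glucose transporter GLUT4, and it was the fifth most abundant member per transcript length. RAB10 was at 256, 257 and 259 CPM in siADNP and 281, 285 and 284 CPM in siControl libraries. The libraries of each group lay close together and the groups were well apart, yet the fall was small, to 91.0% of control (log2 fold change -0.14 ± 0.05, edgeR adjusted p = 0.0276). In edgeR it did not pass without siADNP replicate 1 (0.06225), siADNP replicate 3 (0.0514), siControl replicate 1 (0.0642), replicate 2 (0.0920) or replicate 3 (0.0746), nor with upper-quartile scaling (0.0745). With the GC offset its log2 fold change was -0.072 (0.266). RAB8A, RAB8B and RAB13, which serve apical transport, cilia and tight junctions, had log2 fold changes of 0.03, 0.01 and -0.10 and did not pass. RAB8A averaged 250 ± 20.5 CPM in siADNP and 245 ± 12.9 CPM in siControl libraries (SD, n = 3 each), and shares exon positions with HSH2D, which rose (0.62, edgeR adjusted p = 0.000688).

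**Figure D2:**
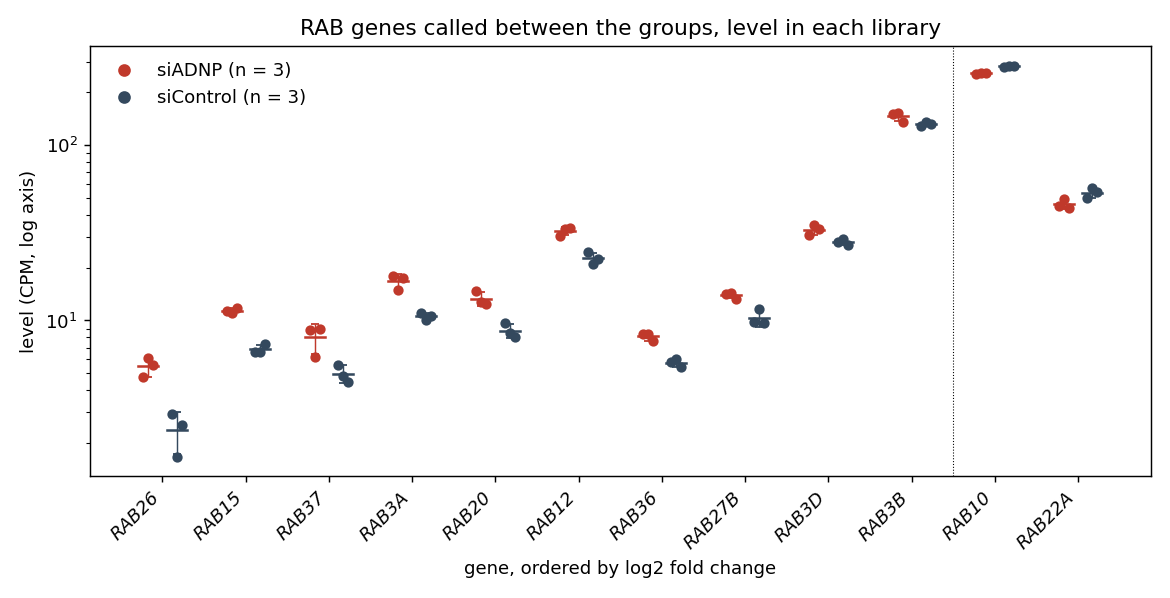
Level in each library (CPM, log axis) of the 12 called RAB genes, ordered by log2 fold change, with siADNP in red and siControl in dark grey-blue; points are libraries, horizontal bars means and whiskers SD (n = 3), and the dotted line parts rises from falls. Groups are apart in 11 of the 12, and RAB3B overlaps at 136 CPM.

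Among the RABs of late endosomes, lysosomes and autophagy, 2 of 5 tested members rose (40%, against 14.6% of all tested genes) and 3 did not pass. RAB12, which directs transferrin receptor from recycling endosomes to degradation, had the smallest p of the family. It was at 30.3, 33.2 and 33.5 CPM in siADNP and 24.4, 21.0 and 22.4 CPM in siControl libraries, without overlap, a 1.43-fold rise (log2 fold change 0.52 ± 0.09, edgeR adjusted p = 3.59e-05). RAB20, which acts in phagosome maturation, was at 14.8, 12.8 and 12.5 CPM in siADNP and 9.64, 8.46 and 8.08 CPM in siControl libraries, without overlap (log2 fold change 0.61 ± 0.14, edgeR adjusted p = 0.000854). RAB7A, the general RAB of late endosomes and lysosomes and the most abundant member per transcript length, was at 365, 371 and 375 CPM in siADNP and 369, 389 and 348 CPM in siControl libraries. The siADNP values lay inside the siControl range (log2 fold change 0.0064 ± 0.05). RAB9A, which returns cargo from late endosomes to the Golgi, averaged 19.7 ± 0.812 CPM in siADNP and 22.9 ± 1.41 CPM in siControl libraries (SD, n = 3 each); its groups did not overlap but the test did not pass (log2 fold change -0.22 ± 0.10, edgeR adjusted p = 0.1). RAB24, linked to autophagy, also did not pass (0.25 ± 0.17).

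In the recycling group 1 of 7 tested members rose (14.3%, against 14.6% of all tested genes) and 6 did not pass. RAB15, an endosomal RAB best known from neurons, was at 11.3, 11.1 and 11.8 CPM in siADNP and 6.61, 6.59 and 7.35 CPM in siControl libraries. The groups were far apart relative to their spread, a 1.66-fold rise (log2 fold change 0.73 ± 0.15, edgeR adjusted p = 0.00021). RAB11A and RAB11B, the general RABs of recycling endosomes, were above control in every library without passing. RAB11A was at 249, 238 and 247 CPM in siADNP and 234, 233 and 223 CPM in siControl libraries (log2 fold change 0.09 ± 0.05, edgeR adjusted p = 0.179), and RAB11B at 106, 98.5 and 102 CPM in siADNP and 95.6, 91.4 and 94.9 CPM in siControl libraries (0.12 ± 0.06, 0.108). RAB14, RAB4A, RAB35 and RAB17 had log2 fold changes of 0.13, 0.09, 0.07 and -0.10. RAB4B had no read, and its exons are shared with 2 read-through genes in the table, MIA-RAB4B and RAB4B-EGLN2, which also had none, so its 0 is not a measure of its level.

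At early endosomes 1 of 6 tested members fell (16.7%, against 13.7% of all tested genes) and 5 did not pass. RAB22A, which sorts cargo taken up without clathrin back to the surface, was at 44.9, 49.3 and 43.7 CPM in siADNP and 50.0, 56.8 and 53.9 CPM in siControl libraries. The highest siADNP library came close to the lowest siControl library, and RAB22A stood at 85.9% of control (log2 fold change -0.22 ± 0.07, edgeR adjusted p = 0.021). The call ended in DESeq2 (adjusted p = 0.09715) and, in edgeR, without siADNP replicate 1 (0.0687), siADNP replicate 3 (0.102) or siControl replicate 2 (0.135) and with the GC offset (0.114). RAB5A, RAB5B and RAB5C, the switches of early endosome fusion, had log2 fold changes of -0.12, -0.09 and 0.04 and did not pass, and RAB5A was lower in every siADNP library, at 56.4 ± 2.81 CPM against 61.5 ± 0.658 CPM in siControl (SD, n = 3 each). RAB31, which links the Golgi to endosomes, had 0.18 ± 0.08 (edgeR adjusted p = 0.0989), and passed without siControl replicate 2 (0.27, adjusted p = 0.0251) and with the GC offset (0.22, adjusted p = 0.0421). RAB21, a RAB of integrin traffic, had -0.07.

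Of 10 tested RABs of the endoplasmic reticulum and Golgi, 1 rose (10%, against 14.6% of all tested genes) and 9 did not pass. RAB36, a Golgi RAB, was at 8.35, 8.38 and 7.59 CPM in siADNP and 5.83, 5.9999 and 5.43 CPM in siControl libraries, without overlap (log2 fold change 0.49 ± 0.17, edgeR adjusted p = 0.0228). It did not pass in DESeq2 (adjusted p = 0.1335) or, in edgeR, without siADNP replicate 1 (0.0608), siADNP replicate 2 (0.0706), siControl replicate 1 (0.0511) or siControl replicate 3 (0.0781) or with the GC offset (0.0551). RAB30, also at the Golgi, lay lower in every siADNP library, at 4.62, 3.17 and 3.93 CPM against 5.49, 5.90 and 5.18 CPM in siControl, and just missed the threshold (-0.51 ± 0.21, edgeR adjusted p = 0.0575), which it passed without siADNP replicate 1 (-0.65, adjusted p = 0.0403). The abundant RABs of this route moved little. RAB1A and RAB1B, which carry cargo from the endoplasmic reticulum to the Golgi and rank next after RAB7A per transcript length, averaged 249 ± 23.8 and 250 ± 17.8 CPM in siADNP and 256 ± 8.19 and 264 ± 3.45 CPM in siControl libraries (SD, n = 3 each), with log2 fold changes of -0.04 and -0.08. RAB1A shares exon positions with CEP68 on the other strand, which rose (0.31, edgeR adjusted p = 0.00479). RAB6A, of retrograde Golgi traffic, RAB18, of lipid droplets, and RAB2A had -0.04, -0.03 and 0.01, and RAB6B, RAB2B and RAB33B 0.15, -0.11 and 0.04.

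The remaining tested members did not pass. RAB38, a RAB of melanosomes, averaged 5.40 ± 1.02 CPM in siADNP and 5.34 ± 1.26 CPM in siControl libraries (SD, n = 3 each). RAB23, known in mice as an inhibitor of Hedgehog signalling, had a log2 fold change of 0.05 ± 0.08, RAB28, found at the cilium, -0.19 ± 0.19, and RAB40B and RAB40C, which carry a SOCS box that recruits a ubiquitin ligase, -0.14 ± 0.14 and -0.23 ± 0.21. A miss at this depth does not show that these levels were equal. Of the 14 members with too few reads to test, RAB19 had 28 reads in each group and RAB43 had 33 in siADNP and 30 in siControl libraries, while RAB6C, RAB9B, RAB32, RAB33A, RAB34, RAB39A, RAB39B and RAB41 had 0 to 8 per group. RAB43 shares exon positions on the same strand with the read-through gene ISY1-RAB43, which had no read, so its reads may understate its level. RAB4B had none, for which no bound is given, as its exons are shared. RAB3C, RAB40A and RAB42 had none either, which for 3 reads over a group allows a level of up to 0.125 CPM in siADNP and 0.109 CPM in siControl, counting error alone. RAB6C and RAB6A are near-identical copies, so reads may be split between them or left out.

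The rises lay mostly in members with few reads. The called rises had a median level of 11.6 CPM (range 3.92 to 139), the falls lay at 49.8 and 270 CPM, and the members that did not pass had a median of 54.7 CPM. Below the members' median level of 37.3 CPM, a split chosen after the values were seen, 9 of 22 members rose, 40.9%, and 0 fell. Among all tested genes below that level 14.0% rose and 8.14% fell. At or above it 1 of 22 rose and 2 fell, where 15.3% of all tested genes rose and 20.6% fell. Per kilobase of transcript, mean levels over the 6 libraries ranged from 165 CPM for RAB7A, 128 for RAB1B, 103 for RAB1A, 87.5 for RAB8A and 76.4 for RAB10 down to 0.475 for RAB30, and the called rises lay between 1.67 (RAB27B) and 12.8 (RAB12). Changes of at least 1.5-fold were seen in 5 members, all rises, 11.4% of those tested, against 6.40% of all tested genes.

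**Figure D3:**
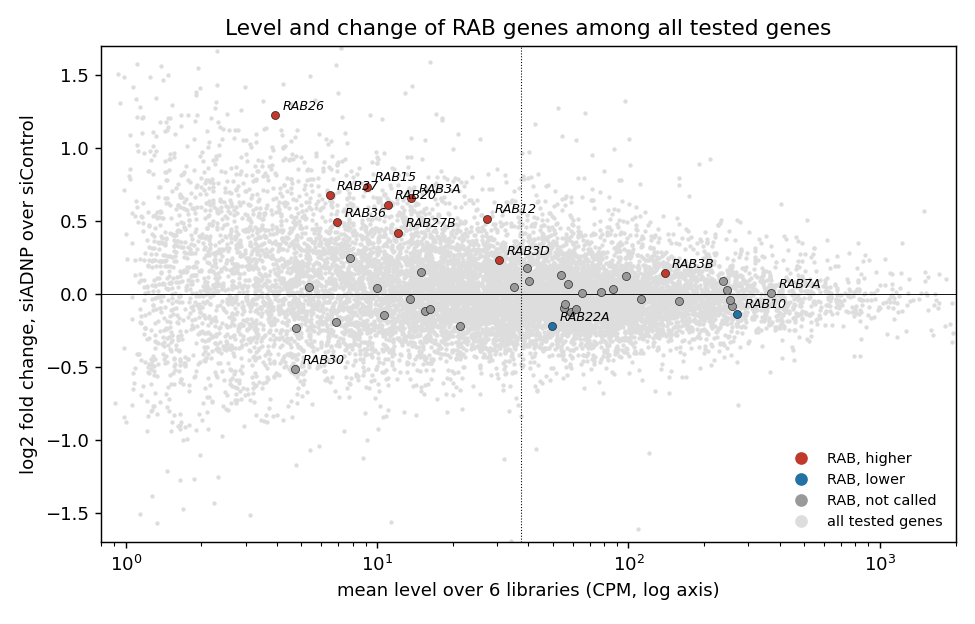
Log2 fold change of siADNP over siControl (y axis) against mean level (CPM, log x axis) for RAB genes (large points, coloured by call) on all tested genes (pale points; 39 genes lie outside the axes); the dotted line is the members' median of 37.3 CPM. All called rises but RAB3B lie left of the line and both falls right of it.

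Transcript GC content moved with the calls, in RAB genes as in the whole table. Its median was 54.7% in the members that rose, 40.6% in those that fell and 42.8% in those that did not pass, against 54.0%, 43.0% and 48.6% for the same classes of all tested genes. Of the rises, RAB27B (35.9%), RAB3B (44.8%) and RAB12 (45.5%) had the lowest GC content and RAB26 the highest, at 61.2%. The part of GC content in the calls was not tested beyond the following fit. When a GC trend was removed from each library, 11 members were called higher and 1 lower. Of the 12 calls, 8 were kept and RAB36, RAB3D, RAB22A and RAB10 lost. RAB31 (log2 fold change 0.22), RAB14 (0.20, edgeR adjusted p = 0.0320) and RAB11A (0.17, edgeR adjusted p = 0.00877) were called higher and RAB1B lower (-0.18, edgeR adjusted p = 0.00584) with this offset, and in no fit without it except RAB31 without siControl replicate 2. RAB12, RAB3A, RAB26, RAB15, RAB20 and RAB37 were called higher in all 16 alternatives, and their log2 fold changes with the GC offset were 0.54, 0.56, 1.12, 0.69, 0.53 and 0.62.

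**Figure D4:**
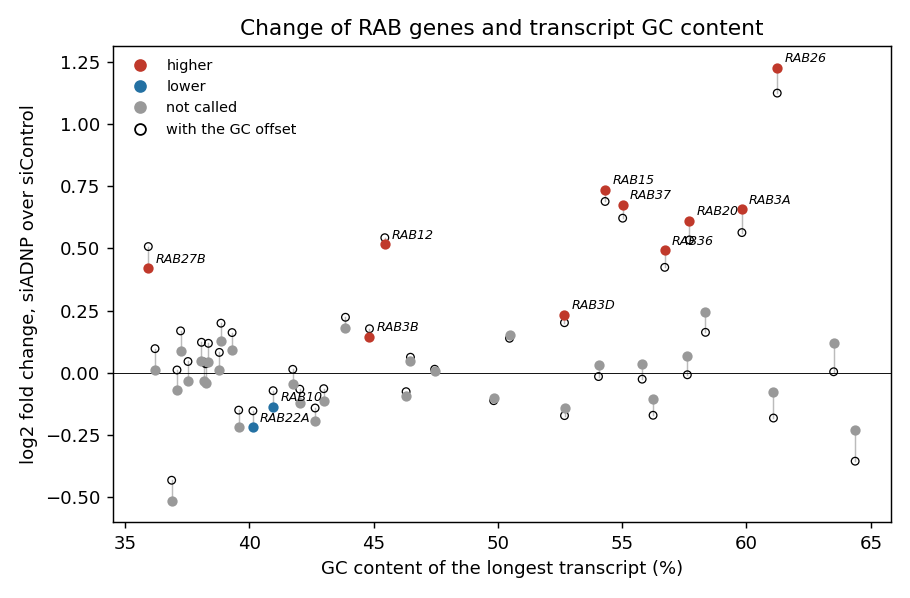
Log2 fold change of siADNP over siControl (y axis) against GC content of the longest transcript (percent, x axis) for the 44 tested RAB genes; filled points are the reported fit, coloured by call, open points the fit with the GC offset. RAB26, RAB15, RAB37, RAB20 and RAB3A stay well above 0 in both, and RAB10 and RAB22A move toward 0.

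**Figure D5:**
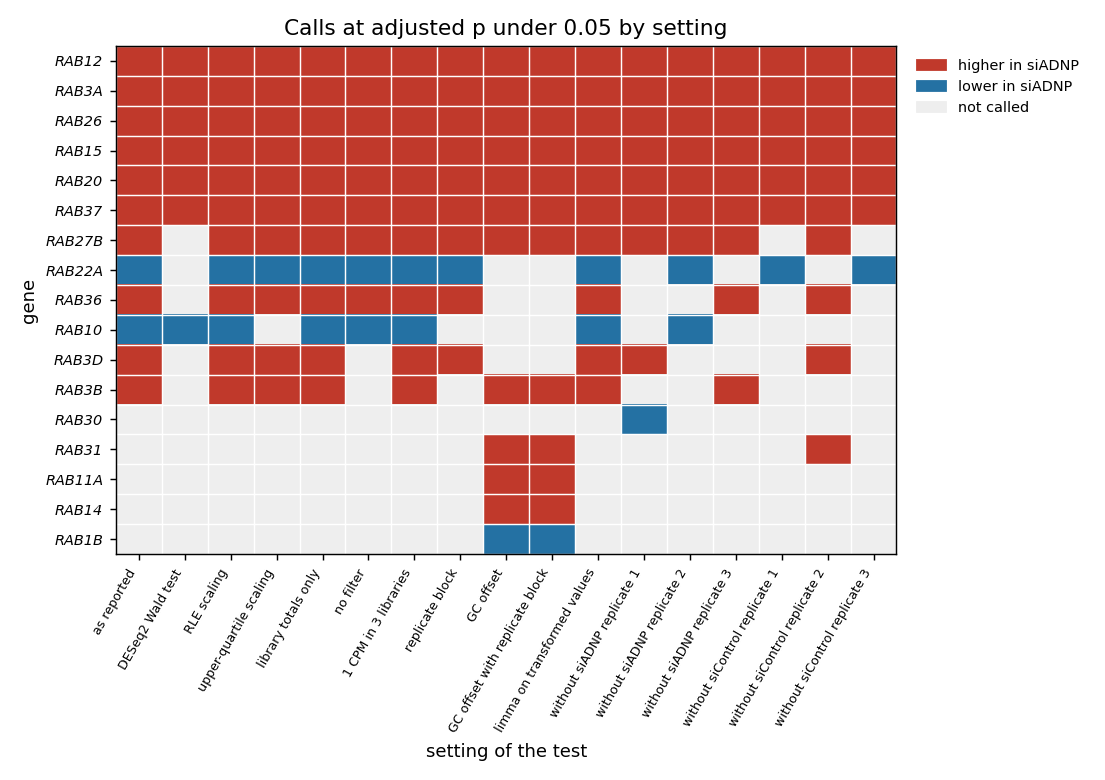
Calls at an adjusted p under 0.05 for the 12 called RAB genes and 5 called only in some alternatives (rows) in the reported test and 16 alternatives (columns); red is higher in siADNP, blue lower, pale not called. The upper 6 genes are red in every column, and the calls of RAB27B, RAB22A, RAB36, RAB10, RAB3D and RAB3B come and go.

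The proteins that load, switch and read RABs were counted from 4 lists. Of 8 prenylation and recycling genes 1 rose, 1 fell and 6 did not pass, with 25% called against 28.3% of all tested genes. RABAC1, a prenylated RAB acceptor of the Golgi, rose to 21.4 ± 1.73 CPM in siADNP, against 15.7 ± 0.754 CPM in siControl (SD, n = 3 each; log2 fold change 0.44 ± 0.11, edgeR adjusted p = 0.00209). CHML, an escort protein for prenylation, fell narrowly (-0.24 ± 0.09, edgeR adjusted p = 0.0371). Its groups overlapped, with siADNP replicate 2 at 35.8 CPM and siControl replicate 2 at 35.5 CPM. CHML lost the call without siADNP replicate 1 (0.0876), siADNP replicate 3 (0.247), siControl replicate 1 (0.111) or siControl replicate 3 (0.0997). It was also lost in DESeq2 (0.139), with upper-quartile scaling, with library totals alone, with the replicate block, and with the GC offset (0.190). GDI2, a GDP dissociation inhibitor, had a log2 fold change of 0.08 and did not pass, but passed in edgeR with the GC offset (adjusted p = 0.0173).

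Of 47 tested exchange factors 4 rose, 5 fell and 38 did not pass. Calls thus reached 19.1% of this list, below the 28.3% of all tested genes. Its median log2 fold change was -0.05. KIAA1432, an older symbol of RIC1, whose protein activates RAB6A, fell to 67.2 ± 3.89 CPM in siADNP, against 95.9 ± 1.79 CPM in siControl (SD, n = 3 each; -0.51 ± 0.06, edgeR adjusted p = 4.21e-08), while RAB6A itself was not called. DENND1B, an exchange factor for RAB35, DENND4A, one for RAB10, and TRAPPC6B, a subunit of the TRAPP complexes that act on RAB1, fell with -0.55, -0.50 and -0.34. The 4 rises numbered 1 or 2 without siADNP replicate 1 or 2 or any 1 siControl library, 1 with the GC offset and 0 in DESeq2, where 3 had an unadjusted p under 0.05, and the falls 5 to 7 over all alternatives.

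Of 33 tested GTPase activating proteins 6 rose, 4 fell and 23 did not pass, with a median of -0.03. The share called was 30.3%, against 28.3% of all tested genes. TBC1D8 rose to 57.5 ± 1.85 CPM in siADNP, against 43.2 ± 1.03 CPM in siControl (SD, n = 3 each; 0.41 ± 0.07, edgeR adjusted p = 1.78e-05), and SGSM2, which acts on RAB32 and RAB38, rose with 0.30. TBC1D12 fell to 11.7 ± 0.171 CPM in siADNP, against 18.9 ± 0.622 CPM in siControl (SD, n = 3 each; -0.68 ± 0.12, edgeR adjusted p = 2.13e-05), and TBC1D5, a RAB7 regulator bound to retromer, fell with -0.36. The falls numbered 2 in DESeq2 and without siControl replicate 3.

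Of 44 tested effectors 6 rose, 6 fell and 32 did not pass, with a median of -0.03. The share called was 27.3%, against 28.3% of all tested genes. SYTL3, a synaptotagmin-like protein, fell to 59.96 ± 1.63 CPM in siADNP, against 77.6 ± 0.729 CPM in siControl (SD, n = 3 each; -0.37 ± 0.06, edgeR adjusted p = 1.78e-05), and MLPH, the melanosome linker melanophilin, rose to 67.4 ± 3.87 CPM in siADNP, against 53.3 ± 0.789 CPM in siControl (SD, n = 3 each; 0.34 ± 0.07, edgeR adjusted p = 0.00013). EEA1 and APPL1, RAB5 effectors of early endosomes, fell with -0.32 ± 0.06 and -0.24 ± 0.06 (edgeR adjusted p = 0.000199 and 0.00104). The rises numbered 3 in DESeq2 and without siADNP replicate 2, and 2 without siControl replicate 1. The shares called in these lists, 19.1% to 30.3%, stand beside the 28.3% of all tested genes.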

How the data were processed

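RNA was sequenced from 3 siADNP and 3 siControl libraries of HCT116 cells, made from DNase-treated total RNA per the labels' protocols. Analysis started from the deposited raw counts, 1 line per gene symbol, without normalization by the authors; per the submitters' processing notes, STAR, HTSeq and DESeq2 were used with hg19, and for versions, gene annotation and strand setting the sources used here give nothing. HTSeq summary lines (no feature 53.5% to 55.7% of reads, not uniquely aligned 17.4% to 17.9%, ambiguous 0.455% to 0.500%) were left out. The second deposited table holds log2-like variance-stabilized values by the authors, which differed by at most 0.0148 from those recomputed with DESeq2, and served only in 1 alternative. No 2 libraries were identical.

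All genes were fitted with edgeR 4.0.16 in R 4.3.3 (TMM, filterByExpr with minimum count 10, glmQLFit, glmQLFTest; siADNP minus siControl, two-sided, Benjamini-Hochberg over 12489 genes), a step tested on simulated data, and read off for RAB genes. Standard errors are the log2 fold change over the square root of F. Alternatives used DESeq2 1.42.0, limma 3.58.1, other scalings and filters, a replicate block, a per-library GC trend as an offset, and each library left out. Where 1 library is left out, its group keeps 2. GC content and length are those of the longest GENCODE transcript of a newer build, known for 96.9% of tested genes. Overlapping genes come from the same annotation. Figures used matplotlib 3.10.9.

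Members and lists were chosen with earlier results of these data known. Named are ADNP, every called RAB gene, the most abundant member of each role, paralogues of called members, and up to 4 called genes of each regulator list; other RAB genes and GDI2, markers and overlapping genes were named to account for all members. A withheld item is not reported here.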

Additional observations from a re-analysis of the deposited data

How the results depend on the processing

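RAB12, RAB3A, RAB26, RAB15, RAB20 and RAB37 were called higher in all 16 alternatives, and no called RAB gene changed sign in any. RAB genes called higher numbered 6 in DESeq2 and 6 to 10 with 1 library left out. RAB genes called lower numbered 1 in DESeq2, with upper-quartile scaling, with the replicate block, with the GC offset and with the GC offset and replicate block, and 0 to 2 with 1 library left out. Of the whole table, all genes called higher numbered 1106 in DESeq2, against 1824 in edgeR, and all genes called lower 1079, against 1714. The RAB median log2 fold change was 0.058 with upper-quartile scaling, where the median of all tested genes was 0.023, and lay between 0.0015 and 0.042 with 1 library left out, lowest without siADNP replicate 3. The cause of these shifts was not tested. Same-numbered libraries did not deviate together (correlations of 0.024, -0.035 and -0.029 for numbers 1, 2 and 3), so the numbers were not taken to pair the samples; with the replicate block edgeR called 9 RAB genes higher and 1 lower, RAB10 (adjusted p = 0.0528) and RAB3B (0.0595) missed the threshold, and 1694 genes were called higher and 1542 lower in all. With the GC offset and replicate block 11 RAB genes were called higher. Depth limits the members under about 10 CPM, where standard errors reached 0.24 on the log2 scale, and a group of 3 libraries cannot show an outlier by the test used for larger groups.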
